A study of Mus musculus with 3 samples.

Results

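The genes described here are 10 markers of endothelium, the cell layer that lines blood vessels: Pecam1, Cdh5, Esam, Kdr, Flt1, Tek, Tie1, Plvap, Emcn and Cd34. They were taken by gene symbol from the annotation of the array's probes, which gave 12 probes for the 10 genes, out of 25697 probes and 16593 named genes in all. Pecam1 and Flt1 had 2 probes each and the other 8 genes 1. Total RNA from 3 replicates of 1 group was hybridised to Illumina MouseRef-8 v2.0 beadchips, 1-colour arrays of bead-bound probes. The mice were Rag1-/-, a genotype without mature T and B cells. Per the labels' protocols, adenovirus was injected into the splenic lobe of the pancreas, the islets were later removed, and Cherry+ cells (cells with a red fluorescent protein) were sorted from the digested acinar fraction. The titles call the cells induced delta cells at day 10 and other labels call them induced beta cells. The labels name neither the gene that the virus carried nor the event from which days were counted. No untreated, unsorted or endothelial sample was analysed here, so levels are described and no groups are compared.

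Endothelial cells meet at junctions built from adhesion proteins and respond to 2 families of growth factors, the vascular endothelial growth factors (VEGF), read by Kdr and Flt1, and the angiopoietins, read by Tek with its partner Tie1. In the pancreas, capillaries run between the acini, and those of the islets are dense and fenestrated, meaning that their walls carry small pores. Endothelial genes are known to be switched on by transcription factors of the ETS family, such as Erg and Fli1, which bind the core letters GGAA.

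Most endothelial markers were not above background on all 3 arrays of the sorted cells. The deposited detection p sets each probe against the negative-control beads of its array. It had to be under 0.05 on each of the 3 arrays for a probe to count as detected, and 1 such probe sufficed for its gene. By that rule 2 of the 10 genes were detected, Esam and Plvap (20.0%, against 40.9% of all named genes). Counted by probe, 2 of 12 were detected (16.7%, against 33.0% of all probes). Among the 8 markers with 1 probe, 2 were detected, where 35.5% of all 1-probe genes were. Flt1 and Emcn were above background on 2 arrays, those of replicates 2 and 3, and the remaining 6 markers on none. With replicate 1 left out, or with 2 arrays sufficing, 4 of 10 genes counted as detected (43.1% and 44.7% of all named genes). An array reads many cells together, so fewer cells of a type and less RNA per cell cannot be told apart, and absence of signal from a probe is no proof that its gene was off. The same 2 genes were detected at a detection p under 0.01 (35.4% of all named genes) and with Benjamini-Hochberg adjustment of the detection p on every array (36.8%). No marker was added without replicate 2 (41.8%) or without replicate 3 (41.7%), and leaving out an array could only add genes. Requiring every probe of a gene to be detected (28.3%) could not change the 2 genes, since Esam and Plvap have 1 probe each.

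Levels below are background-corrected and normalized signals on the log2 scale, with mean ± SD for n = 3 arrays. Probes differ in efficiency, so levels are not compared between genes. On this scale the detection limit, the dimmest signal with a detection p of 0.05 or less, was 4.83 for replicate 1, 4.77 for replicate 2 and 4.75 for replicate 3. The negative controls had an implied median intensity of 60.4, 54.2 and 51.9 on the linear scale of the deposited table. The median level over the 10 markers (brightest probe of each) was 4.61, against 4.64 over all named genes and 6.89 over the detected ones. The arrays detected 35.6%, 37.3% and 37.8% of all probes. The labels do not say if the replicates are separate animals, so the spread may be technical.

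**Figure D1:**
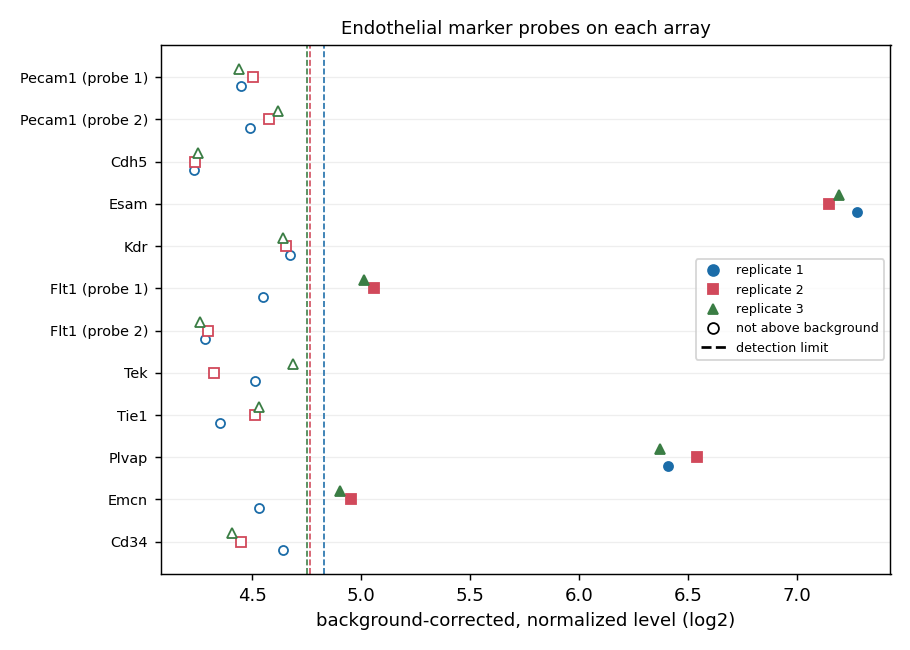
Level (log2, horizontal axis) of each of the 12 endothelial marker probes on the arrays of replicates 1 to 3. Filled symbols are above background (detection p under 0.05) and dashed lines mark each array's detection limit; Esam and Plvap lie to the right on all 3 arrays, and Flt1 probe 1 and Emcn cross the limit on replicates 2 and 3.

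The junction genes differed in whether they were above background. Esam encodes an adhesion molecule of the immunoglobulin superfamily at endothelial tight junctions that is also found on platelets and blood stem cells. Its probe gave intensities of 192, 183 and 189 on replicates 1, 2 and 3, which were 3.19, 3.38 and 3.64 times the median negative control. No negative control, of the 798 implied by the steps of the detection p-values, was as bright on any of the arrays. The normalized levels of Esam were 7.27, 7.15 and 7.19 (7.20 ± 0.065), so the arrays lay within 0.13 log2 units of each other and each lay more than 2 units above its limit. Cdh5, which encodes VE-cadherin, the cadherin of endothelial adherens junctions, read 52.9, 47.8 and 46.8. These intensities were below the median negative control on every array, with detection p-values of 0.937, 0.916 and 0.872, and the level was 4.24 ± 0.011.

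Pecam1, which encodes the adhesion molecule CD31 of endothelium, platelets and leukocytes, was not above background with either probe. The brighter probe read 4.49, 4.58 and 4.62 (4.56 ± 0.064), with detection p-values of 0.213, 0.125 and 0.103. The other read 4.45, 4.50 and 4.44 (4.47 ± 0.033), with detection p-values of 0.268, 0.189 and 0.267. The annotation ties the probes to different transcript records of the gene, and they gave the same call on each array.

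Of the receptors for VEGF, Kdr stayed under the limit and Flt1 crossed it on 2 arrays with 1 of its probes. Kdr encodes VEGF receptor 2, the main signalling receptor for VEGF-A in endothelium. Its levels were 4.67, 4.66 and 4.64 (4.66 ± 0.017), with detection p-values of 0.0940, 0.0827 and 0.0952, under the limit on every array by 0.11 to 0.16 log2 units. Flt1 encodes VEGF receptor 1, which also exists as a secreted form that binds the ligand. One Flt1 probe read 4.55, 5.06 and 5.01 (4.87 ± 0.28), with detection p-values of 0.168, 0.0113 and 0.0125, low on replicate 1 and higher on the others. The other Flt1 probe read 4.28, 4.30 and 4.26 (4.28 ± 0.018), with detection p-values of 0.759, 0.683 and 0.848, below the median negative control on all arrays. Both Flt1 probes are annotated to 1 transcript record, and which part of it each covers is not known here.

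Neither receptor of the angiopoietin pathway was above background on any array. Tek encodes TIE2, the receptor that binds angiopoietins. Its levels were 4.51, 4.33 and 4.69 (4.51 ± 0.18), with detection p-values of 0.193, 0.575 and 0.0689, with replicate 3 the closest to its limit, at 0.061 log2 units under it. Tie1, the partner receptor of TIE2, read 4.35, 4.52 and 4.53 (4.47 ± 0.099), with detection p-values of 0.505, 0.175 and 0.150.

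Among the genes of surface glycoproteins, Plvap was detected, Emcn crossed the limit on 2 arrays and Cd34 stayed under it. Plvap encodes the protein of the diaphragms that span endothelial fenestrae and vesicles. Its intensities were 126, 133 and 123, or 2.08, 2.46 and 2.37 times the median negative control, again brighter than every implied negative control on each array. The levels were 6.41, 6.54 and 6.37 (6.44 ± 0.090), all at least 1.58 log2 units above the limit. Emcn, which encodes endomucin, a sialomucin of capillary and venous endothelium, read 4.53, 4.95 and 4.90 (4.79 ± 0.23), with detection p-values of 0.183, 0.0150 and 0.0188, under the limit on replicate 1 and up to 0.19 log2 units above it on the others. Cd34 encodes a sialomucin of endothelium, blood progenitors and some stromal cells, and read 4.64, 4.45 and 4.41 (4.50 ± 0.12), with detection p-values of 0.104, 0.274 and 0.338, under the limit on all arrays.

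The spread between the arrays was not alike among the markers. The SD of Esam (34.2nd percentile) and of Plvap (51.7th percentile) lay in the middle range of all detected probes, whose median SD was 0.0872. Among probes not detected on all 3 arrays, with a median SD of 0.0642, the brighter Flt1 probe stood at the 98.8th percentile, Emcn at the 96.9th and Tek at the 92.5th. Cdh5 stood at the 2.5th percentile. These ranks hold for the normalized log2 levels only. On the scale of the deposited intensities the SD was 2.75 for the brighter Flt1 probe, 2.02 for Emcn, 6.6 for Tek and 3.23 for Cdh5. On the normalized scale Flt1 and Emcn were both low on replicate 1, by 0.51 and 0.42 log2 units against replicate 2. Their deposited intensities on replicates 1, 2 and 3 were 67.0, 72.5 and 69.5 (brighter Flt1 probe) and 66.5, 70.1 and 66.7 (Emcn). The implied median negative control was 60.4, 54.2 and 51.9 on those arrays. The array of replicate 1 also had the lowest share of all probes detected, and its part in these values was not tested. No likeness of pattern between genes was computed, since 3 replicates of 1 group give no pattern across conditions.

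The promoters of Flt1 and Emcn are shown because these markers crossed the limit on the same 2 arrays. The platelet gene Gp9 crossed it on the same arrays too, and shared control of these genes was not tested. The promoter windows come from RefSeq (GRCm38.p6), run from 250 bases before to 50 after the gene's start, and are written 5′ to 3′ on the gene's strand. Capitals mark GGAA, the ETS core, on either strand (TTCC on the other). Flt1 lies at chr5:147725962-147726261 on the minus strand and Emcn at chr3:137340828-137341127 on the plus strand.
Flt1: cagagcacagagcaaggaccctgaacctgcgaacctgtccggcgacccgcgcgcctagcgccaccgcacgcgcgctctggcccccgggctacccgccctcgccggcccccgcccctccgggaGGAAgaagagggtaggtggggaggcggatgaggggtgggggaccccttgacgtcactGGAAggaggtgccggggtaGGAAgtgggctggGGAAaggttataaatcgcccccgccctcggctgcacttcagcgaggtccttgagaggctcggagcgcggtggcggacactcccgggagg
Emcn: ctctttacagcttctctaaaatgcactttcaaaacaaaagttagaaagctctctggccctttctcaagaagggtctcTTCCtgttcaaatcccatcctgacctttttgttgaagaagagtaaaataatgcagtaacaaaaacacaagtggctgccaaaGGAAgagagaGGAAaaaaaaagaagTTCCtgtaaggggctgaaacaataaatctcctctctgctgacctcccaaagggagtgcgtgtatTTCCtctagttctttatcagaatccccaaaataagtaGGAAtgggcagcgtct
The Flt1 window holds 4 copies, all on the strand shown, and the Emcn window 6, 3 on each strand. Of the 32851 windows of this length in the table, 96.0% hold at least 1 copy, 46.3% at least 4 and 15.7% at least 6. Windows were matched for 6 of the 10 markers. Pecam1, Cdh5, Esam and Plvap had none, so no marker detected on all arrays is covered. Kdr and Cd34 held 5 copies each, a number that 28.6% of windows reach. Tek held 2 (84.6% of windows) and Tie1 9 (1.59%). Copies are a description of these letters and show no binding.

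Related genes were taken from 13 lists of other endothelial, vascular, blood and pancreatic genes, 131 in all, of which 118 had a named probe. Of 23 other surface and junction genes of endothelium, 9 were detected (39.1%, against 40.9% of all named genes). Podxl, which encodes podocalyxin, a sialomucin also made by some epithelia, read 7.07 ± 0.089. Egfl7, which encodes a secreted factor of endothelium, read 6.77 ± 0.12 with 1 of its 3 probes, and the other 2 were not detected on all arrays. Cd93, a receptor of endothelium and myeloid cells, read 6.02 ± 0.081, and Ly6c1, a surface antigen of endothelium, 6.23 ± 0.16; Ly6c1 has a near-identical neighbour gene used by monocytes, so its value is uncertain. Vwf, the von Willebrand factor of endothelium and platelets (4.40 ± 0.12), Eng, which encodes the TGF-beta co-receptor endoglin (4.47 ± 0.063), and Clec14a, an endothelial lectin (4.22 ± 0.015), were not above background on any array. Robo4, an endothelial guidance receptor, was above it on replicates 1 and 2 with 1 of 3 probes (4.91 ± 0.17). Of 3 adhesion genes of activated endothelium, which other cells can also induce, Icam1 (6.31 ± 0.13) and Vcam1 (5.27 ± 0.18) were detected and Sele, which encodes E-selectin, was not (4.42 ± 0.11).

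**Figure D2:**
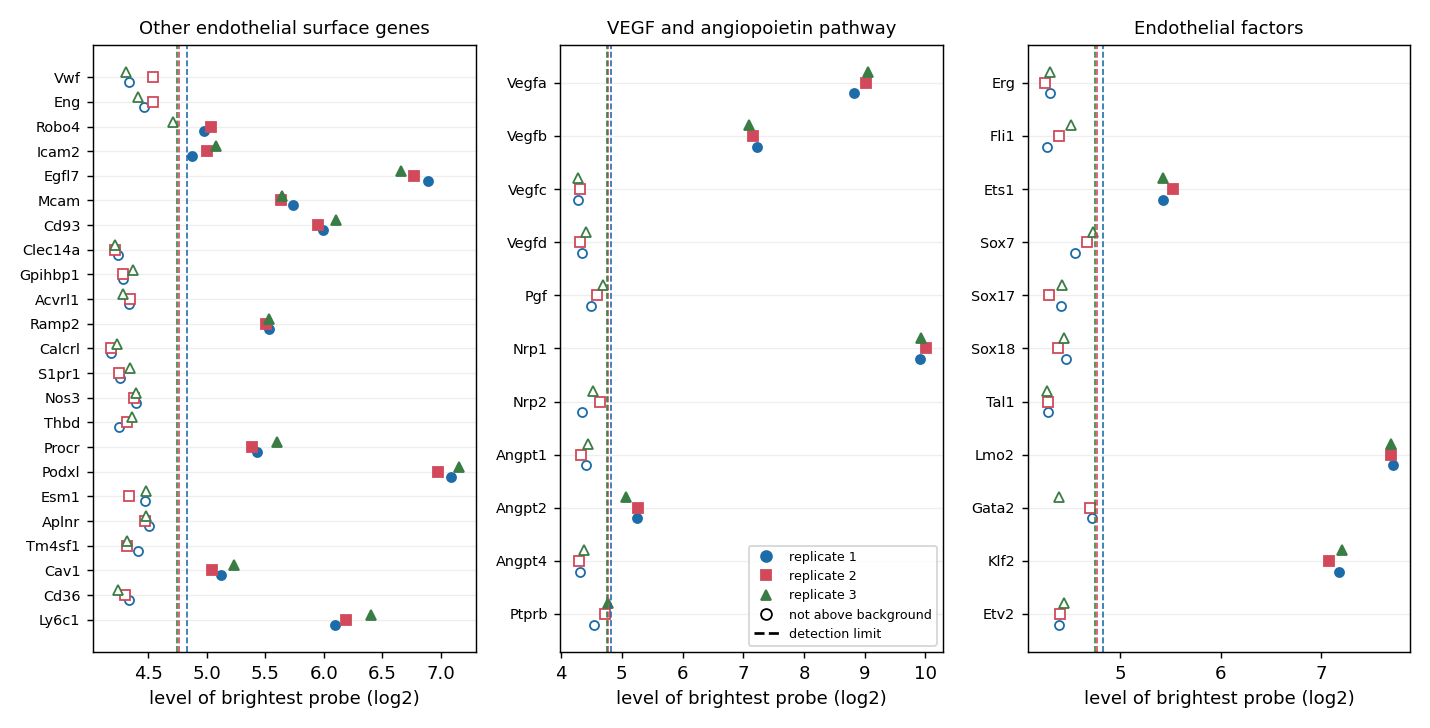
Level of the brightest probe (log2, horizontal axis) of each measured gene in the lists of other endothelial surface genes, of VEGF and angiopoietin pathway genes and of endothelial transcription factors, on each array, with symbols and dashed limits by replicate. Of these lists, 9 of 23, 4 of 11 and 3 of 11 genes were detected on all 3 arrays.

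On the side of the ligands and co-receptors, 4 of 11 genes of the VEGF and angiopoietin pathways were detected (36.4%, against 40.9% of all named genes). Vegfa, which encodes the ligand of Kdr and Flt1 and is made by islet endocrine cells among others, read 8.83, 9.02 and 9.05 with its brightest probe (8.97 ± 0.12). A second Vegfa probe was also detected (7.84 ± 0.15) and the remaining one was at background (4.30 ± 0.066). Vegfb, which encodes a ligand of Flt1, read 7.16 ± 0.070. Nrp1 encodes neuropilin 1, a VEGF co-receptor that neurons and other cells also carry, and was detected with both probes (9.95 ± 0.050 and 9.72 ± 0.0096). Angpt2, which encodes an angiopoietin that can block TIE2, was detected with 1 of 2 probes (5.20 ± 0.11). Vegfc (4.29 ± 0.024) and Vegfd (4.36 ± 0.049), ligands of the lymphatic receptor, Pgf, a ligand of Flt1 (4.60 ± 0.099), and Nrp2 (4.51 ± 0.15) were not above background. Angpt1, the activating ligand of TIE2, was not either (4.40 ± 0.059); it was named after its value was seen. Vegfa, Vegfb, Angpt2 and Nrp1 were thus detected on all arrays and the other genes of this list were not. None of the 4 receptor genes Kdr, Flt1, Tek and Tie1 was detected on all arrays, where 40.9% of all named genes were. Flt1 was above background on 2 arrays with 1 of its probes. A difference between ligand and receptor genes was not tested.

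Transcription factors of endothelium were detected for 3 of 11 genes (27.3%, against 40.9% of all named genes). Lmo2, a factor of blood and endothelial development, read 7.70 ± 0.010, and Klf2, a factor induced by blood flow and also used by leukocytes, 7.15 ± 0.069. Ets1 was detected with 1 of its 3 probes (5.46 ± 0.056). Erg (4.29 ± 0.027), Fli1 (4.39 ± 0.12), Sox7 (4.65 ± 0.092) and Sox17 (4.38 ± 0.072) were not above background on any array. Of 10 genes of arterial, venous and lymphatic endothelium, 3 were detected (30.0%, against the same 40.9%). Prox1, the factor of lymphatic endothelium that pancreatic endocrine cells and progenitors also use, read 8.52 ± 0.078 with 1 of 2 probes. Pdpn, which encodes podoplanin of lymphatic endothelium and some epithelia and stroma, read 6.08 ± 0.053, and Ephb4, a receptor of venous endothelium, 5.14 ± 0.21. The arterial genes Efnb2 (4.33 ± 0.052), Dll4 (4.40 ± 0.12) and Gja4 (4.48 ± 0.049) were at background, and Gja5 was above it on 1 array (4.68 ± 0.099).

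Junction genes that belong to the same protein family as Esam, or that tight junctions share, were detected for 6 of 11. This was 54.5%, against 40.9% of all named genes. Cxadr, the coxsackievirus and adenovirus receptor of epithelial junctions, read 8.73 ± 0.082 with its brightest probe, and 2 of its 3 probes were detected. F11r, which encodes junctional adhesion molecule A of epithelium, endothelium and platelets, read 8.13 ± 0.077. Igsf11, an adhesion molecule of the same superfamily, read 7.84 ± 0.084, with 2 of 3 probes detected. Magi1, a scaffold that binds ESAM, read 6.82 ± 0.094 with 1 of 4 probes. Jam2 (4.41 ± 0.046, 4 probes) and Jam3 (4.25 ± 0.047), relatives in endothelial junctions, Clmp (4.55 ± 0.19) and Vsig1 (4.29 ± 0.018) were not above background.

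Cells other than endothelium carry some of the markers, so their genes are given beside them. Platelet genes were detected for 4 of 9 (44.4%, against 40.9% of all named genes). Pf4, which encodes platelet factor 4 and which mouse macrophages also express, read 7.01 ± 0.27. Itga2b, an integrin subunit, read 5.03 ± 0.15 with 1 of its 2 probes. Selp, the P-selectin that endothelium also stores, read 5.01 ± 0.17, and Gp5, a glycoprotein of the von Willebrand factor receptor, 4.86 ± 0.077. At a detection p under 0.01, 1 of the 9 platelet genes remained, and 35.4% of all named genes were detected. The integrin gene Itgb3 (4.64 ± 0.15), the platelet glycoprotein gene Gp1bb (4.26 ± 0.036) and the chemokine gene Ppbp (4.29 ± 0.045) were at background, and Gp9 was above it on replicates 2 and 3 (4.73 ± 0.28). The summed intensity of the 9 platelet genes, most of them near the negative controls, was 688, 686 and 653 on replicates 1, 2 and 3. Pf4 read 6.73, 7.28 and 7.01 on replicates 1, 2 and 3. Of 4 genes of blood progenitors and leukocytes 1 was detected (25.0%, against 40.9%), Spn, which encodes leukosialin (5.12 ± 0.15). At a detection p under 0.01 the count was 0 (35.4% of all named genes). Ptprc, which encodes CD45 (4.40 ± 0.044), Cd48 (4.40 ± 0.062) and Slamf1 (4.43 ± 0.11) were at background. Macrophage genes were detected for 5 of 6 (83.3%, against 40.9%). Among them were Lyz2 (10.13 ± 0.30), Adgre1 (8.84 ± 0.19), Cd14 (7.45 ± 0.058) and C1qa (7.06 ± 0.055). Lyz2 was detected with 1 of its 3 probes and Adgre1 with 2 of 3. The list had summed intensities of 1891, 2193 and 2588 on replicates 1, 2 and 3. Of these sums the brightest Lyz2 probe alone gave 942, 1108 and 1514. Itgam was at background (4.34 ± 0.019). The part of platelets, blood cells or macrophages in the levels of Esam, Plvap and Cd93 was not tested.

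Mural cells, the pericytes and smooth muscle cells that wrap vessels, gave 2 detected genes of 10 (20.0%, against 40.9% of all named genes). Acta2, which encodes smooth muscle actin, read 5.86 ± 0.047 with its brightest probe, and 3 of its 4 probes were detected. Cspg4, which encodes the pericyte proteoglycan NG2, read 5.28 ± 0.066. Pdgfrb, the receptor that recruits pericytes (4.34 ± 0.0495), Rgs5 (4.43 ± 0.10) and Tagln (4.55 ± 0.18) were at background, and Des was above it on 1 array (4.78 ± 0.12). Acinar, endocrine and duct genes were read on the same arrays. These lists were chosen with earlier results of these data known, so their counts are no independent check of the labelled source. All 7 acinar genes were detected, among them the enzyme genes Ctrb1 (14.59 ± 0.0068), Cpa1 (14.50 ± 0.019), Cela1 (14.44 ± 0.039) and Prss2 (14.22 ± 0.089). All 8 delta and endocrine genes were too, among them the hormone genes Sst (13.81 ± 0.046), Ins2 (11.38 ± 0.039) and Gcg (9.21 ± 0.079) and the granule gene Chga (9.78 ± 0.20). Chga was detected with 2 of its 3 probes. Of 5 duct genes, the keratin gene Krt7 (7.98 ± 0.099), the chloride channel gene Cftr (6.76 ± 0.065) and Sox9 (5.73 ± 0.11) were detected, and Krt19 (4.55 ± 0.13) and Car2 (4.35 ± 0.036) were at background. Each share is set beside the share of all named genes as a description of these arrays, with no test between lists.

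**Figure D3:**
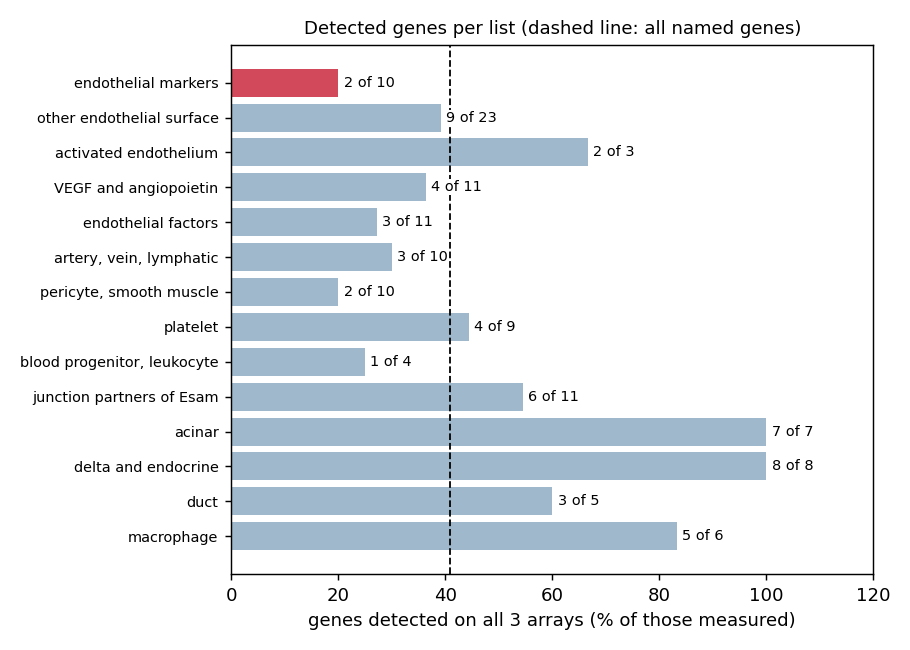
Share of measured genes detected on all 3 arrays (%, horizontal axis) in the endothelial marker list (red) and 13 other lists (blue), with the number detected beside each bar and the share of all named genes (40.9%) as a dashed line. The endothelial markers (2 of 10) lie to the left of that line. So do the lists of endothelial factors, of artery, vein and lymphatic genes, of pericyte genes, and of blood progenitor and leukocyte genes. The lists of other endothelial surface genes (39.1%) and of VEGF and angiopoietin genes (36.4%) lie nearer to the line, on the same side. The acinar and endocrine lists reach 100%.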

How the data were processed

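Per the file headers, 1 deposited table gives for each probe the mean bead intensity and a p-value of detection; its 3 intensity columns share a mean of 212, so the authors' values were scaled before deposit. The other table holds the authors' processed intensity values, quantile normalized on a linear scale as judged from the values, and served as an alternative. Scanner software: not given in the sources used here. Intensities were background-corrected by normexp with negative controls inferred from the detection p-values (offset 16), quantile normalized and taken to log2 (limma 3.58.1, R 4.3.3). The code was tested on simulated data in which only bright probes were shifted, so shifts in levels near the negative controls were not covered. Genes with several probes are given by the brightest.

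Of 25697 probes, 23978 had 1 gene symbol in the platform annotation, 0 had several and 1719 were unnamed here; 23962 matched a RefSeq table of GRCm38.p6 through the Entrez identifier. Of the genes in the lists, 13 had no named probe, and Figf was updated to Vegfd. No probe sequence was used, so probes that bind near-identical genes are unknown.

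The members and lists were chosen with earlier results of these data known. All 10 members are named, and from each other list the 4 detected genes of highest level and the first 4 undetected in list order. Groups come from the titles. With 1 group there is no test between groups. Alternatives were other detection rules, scaling, offset, the authors' values, the mean of probes and leaving out each replicate. The number of arrays limits the precision.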

Additional observations from a re-analysis of the deposited data

How the results depend on the processing

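Esam and Plvap were the detected markers at a detection p under 0.01 and with Benjamini-Hochberg adjustment of the detection p on every array. The rule that every probe of a gene be detected could not change the count, since both genes have 1 probe. When 2 of 3 arrays sufficed, 4 genes and 4 probes were detected (36.5% of all probes), Flt1 and Emcn being added. Leaving out each replicate in turn, which can only add to the count, gave 2 to 4 genes and 2 to 4 probes. There were 4 without replicate 1 (35.0% of all probes) and 2 without replicate 2 or 3. Median scaling moved the 10 marker levels by -0.0030 to 0.016 log2 units, less than the SD between arrays. Leaving out a replicate moved the levels by -0.092 to 0.17. With 3 arrays such a change is smaller than the SD almost by construction, so its size is no check of stability. An offset of 50 raised the levels by 0.30 to 1.48 and the authors' processed values by 0.33 to 1.23. The offset did so by construction, and for the authors' values the cause was not tested. The mean of both probes lowered Flt1 by 0.30 log2 units and Pecam1 by 0.049. In the other lists, a choice made after seeing the data, counts stayed within 1.5 times the main count except for platelet genes (1 of 9 at a detection p under 0.01 and with adjusted p-values) and for blood progenitor and leukocyte genes (0 of 4 at a detection p under 0.01). Of all named genes, 35.4% were detected at a detection p under 0.01 and 36.8% with adjusted p-values. No paired analysis was possible because all samples belong to 1 group. Signals near the negative controls limit what can be said of the 8 undetected markers.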
